A study of Homo sapiens with 10 samples.

Results

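NNAT, the gene that surrounds it (BLCAP) and 8 further genes listed as imprinted or lying in imprinted regions were examined in SH-SY5Y, a human neuroblastoma cell line of noradrenergic type. The 10 genes were PEG10, SGCE, NAP1L5, DLX5, INPP5F, PEG3, MEST and NDN besides NNAT and BLCAP. They were proposed with the fold changes of these same arrays known, so their own differences are given as a description, with no test. A gene counted as measured when a probe set was annotated with its symbol alone. This held for 9 of the 10 genes, each with 1 probe set, out of 14232 named genes on the array, and not for PEG3.

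One set of cells was stably transfected with SOD1(G93A), the copper-zinc superoxide dismutase form found in familial amyotrophic lateral sclerosis, and the other with wild-type SOD1, with 5 arrays of each. Both kinds of transfectant were cultured under G418. The labels leave unstated the promoter of the constructs, the clonal or pooled origin of the lines and the independence of the 5 cultures of a group. The spread behind the p-values below is thus that of these samples, which may be technical, and an effect of the construct and any other difference between the lines cannot be told apart. Values are gene-level log2 intensities from Affymetrix arrays. Samples carry the numbers in their titles, which are 3, 9, 12, 15 and 18 for SOD1(G93A) and 2, 8, 11, 14 and 17 for wild-type SOD1.

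Array medians lay between 6.26 and 6.34, and the lower quartile of the probe sets between 3.84 and 3.89. SOD1 averaged 9.55 ± 0.09 in SOD1(G93A) arrays and 9.78 ± 0.13 in wild-type SOD1 arrays (SD, n = 5 each), a log2 fold change of −0.23 (SE 0.07, limma adjusted p = 0.107), and its probe set does not tell construct from endogenous RNA. Of 12 measured noradrenergic neuroblastoma markers, 11 were above the median probe set, with a mean over the list of 9.27 to 9.51 in SOD1(G93A) arrays and 9.10 to 9.29 in wild-type SOD1 arrays, and by limma 3 rose and 2 fell. The mean of 12 mesenchymal (S-type) markers was 6.0 to 6.17 in SOD1(G93A) arrays and 5.95 to 6.07 in wild-type SOD1 arrays, and 4 rose and 1 fell. Of these 12, 5 were above the median probe set, and 2 (PRRX1 and IFI16) were below the lower quartile. The 7 Schwann and glial markers averaged 4.35 to 4.52 in SOD1(G93A) arrays and 4.23 to 4.34 in wild-type SOD1 arrays, with 1 rise. Of these 7, 0 were above the median probe set, and 2 (ERBB3 and CDH19) were below the lower quartile. The 11 immune and endothelial markers averaged 3.70 to 3.74 in SOD1(G93A) arrays and 3.66 to 3.76 in wild-type SOD1 arrays. Of these 11, 1 was above the median probe set, and 5 (PTPRC, CD3E, LYZ, PECAM1 and KDR) were below the lower quartile. Over all named genes, 4.03% rose and 5.57% fell by the same limma rule (adjusted p of 0.05 or less). The part of these marker shifts in the results below was not tested.

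An imprinted gene is transcribed mainly from the copy inherited from 1 parent, and the choice is kept by DNA methylation at CpG sites of a control region near the gene. Imprinted genes often lie in clusters, and many are active in the developing brain. NNAT encodes neuronatin, a small proteolipid of the endoplasmic reticulum membrane, and is expressed from the paternal copy. It lies inside BLCAP, a gene for another small protein that is transcribed from the opposite strand and edited in its messenger RNA by ADAR enzymes. PEG10, a domesticated retrotransposon gene, and SGCE, which encodes ε-sarcoglycan, start back to back, and both are paternally expressed. NAP1L5, a nucleosome assembly protein gene, lies inside HERC3 in the same way as NNAT lies inside BLCAP.

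Upstream sequence was read for the genes that the RefSeq promoter table (build GRCh38.p14) matched. It held 5 of the 10 genes, BLCAP, NAP1L5, INPP5F, MEST and NDN, with 12 start sites. The 250 bases before a start site are shown for 3 of them, because BLCAP is the host that contrasts with NNAT, NAP1L5 is the nested gene that was lower, and NDN was dim in both lines. They are written 5′ to 3′ on the strand of the gene, with CpG dinucleotides in capitals.
BLCAP: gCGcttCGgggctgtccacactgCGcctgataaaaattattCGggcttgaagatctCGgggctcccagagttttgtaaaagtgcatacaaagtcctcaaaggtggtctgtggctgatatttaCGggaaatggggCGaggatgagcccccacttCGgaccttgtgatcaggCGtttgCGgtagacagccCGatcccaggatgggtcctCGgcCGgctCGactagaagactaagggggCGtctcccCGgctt
NAP1L5: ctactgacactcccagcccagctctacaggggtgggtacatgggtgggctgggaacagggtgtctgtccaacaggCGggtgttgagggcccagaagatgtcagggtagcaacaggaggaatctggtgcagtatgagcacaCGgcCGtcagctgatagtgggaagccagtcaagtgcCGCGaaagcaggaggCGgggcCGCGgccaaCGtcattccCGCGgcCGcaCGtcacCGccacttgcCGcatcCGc
NDN: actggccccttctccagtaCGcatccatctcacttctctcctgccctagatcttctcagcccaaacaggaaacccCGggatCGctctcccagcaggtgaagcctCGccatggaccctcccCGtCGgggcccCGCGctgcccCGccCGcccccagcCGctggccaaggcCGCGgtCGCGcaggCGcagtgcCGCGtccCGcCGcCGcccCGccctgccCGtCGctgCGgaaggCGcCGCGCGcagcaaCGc
The BLCAP window is the most upstream of its 3 start sites (chr20:37527877-37528126, minus strand), and the NAP1L5 window (chr4:88697830-88698079, minus strand) and the NDN window (chr15:23687306-23687555, minus strand) belong to their only start sites. The BLCAP and NAP1L5 windows held 16 CpG sites each, more than 59.0% of the 35116 windows of this length in the table, whose median was 11. The NDN window held 30, more than 87.6% of all windows. INPP5F had 32 CpG sites before the first of its 2 listed starts and 9 before the second, internal one. The 5 MEST windows held 9 to 20. The letters TGCCGC, which the imprint-guarding zinc finger protein ZFP57 recognises when methylated (known from mouse), occurred on either strand in 5 of the 12 windows and in 12.7% of all windows. NAP1L5 held 2 matches, and NDN, the MEST start listed as the second, and the other two BLCAP starts held 1 each. These matches overlap CpG sites and describe the letters only.

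NNAT had the lowest log2 fold change of all named genes. Its log2 level was 5.15, 5.17, 5.10, 5.15 and 5.37 in SOD1(G93A) samples 3, 9, 12, 15 and 18, against 10.96, 11.07, 11.10, 11.23 and 11.33 in wild-type SOD1 samples 2, 8, 11, 14 and 17. The groups lay far apart, and sample 18 was the highest SOD1(G93A) array. In SOD1(G93A) cells the level was 1.62% of that with wild-type SOD1 (log2 fold change −5.95, 95% interval −6.13 to −5.77). In rank, NNAT was brighter than 37.9% of the probe sets in SOD1(G93A) arrays and than 97.2% of them in wild-type SOD1 arrays. In RNA from whole cultures, fewer cells expressing a gene and less RNA per cell cannot be told apart.

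BLCAP, the host gene, differed far less. Its level was 9.34, 9.16, 9.48, 9.46 and 9.50 in SOD1(G93A) samples 3, 9, 12, 15 and 18, against 9.52, 9.35, 9.86, 9.74 and 9.71 in wild-type SOD1 samples 2, 8, 11, 14 and 17. The groups overlapped, since wild-type SOD1 sample 8 lay below 3 of the SOD1(G93A) arrays. The log2 fold change was −0.25 (SE 0.10, 95% interval −0.47 to −0.02), or 84.4% of the wild-type SOD1 level. The change of NNAT minus that of BLCAP was −5.70 (SE 0.11), a 52.1-fold difference in their ratio. BLCAP has 3 listed start sites, and its 1 gene-level value does not tell transcripts from these apart.

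**Figure D1:**
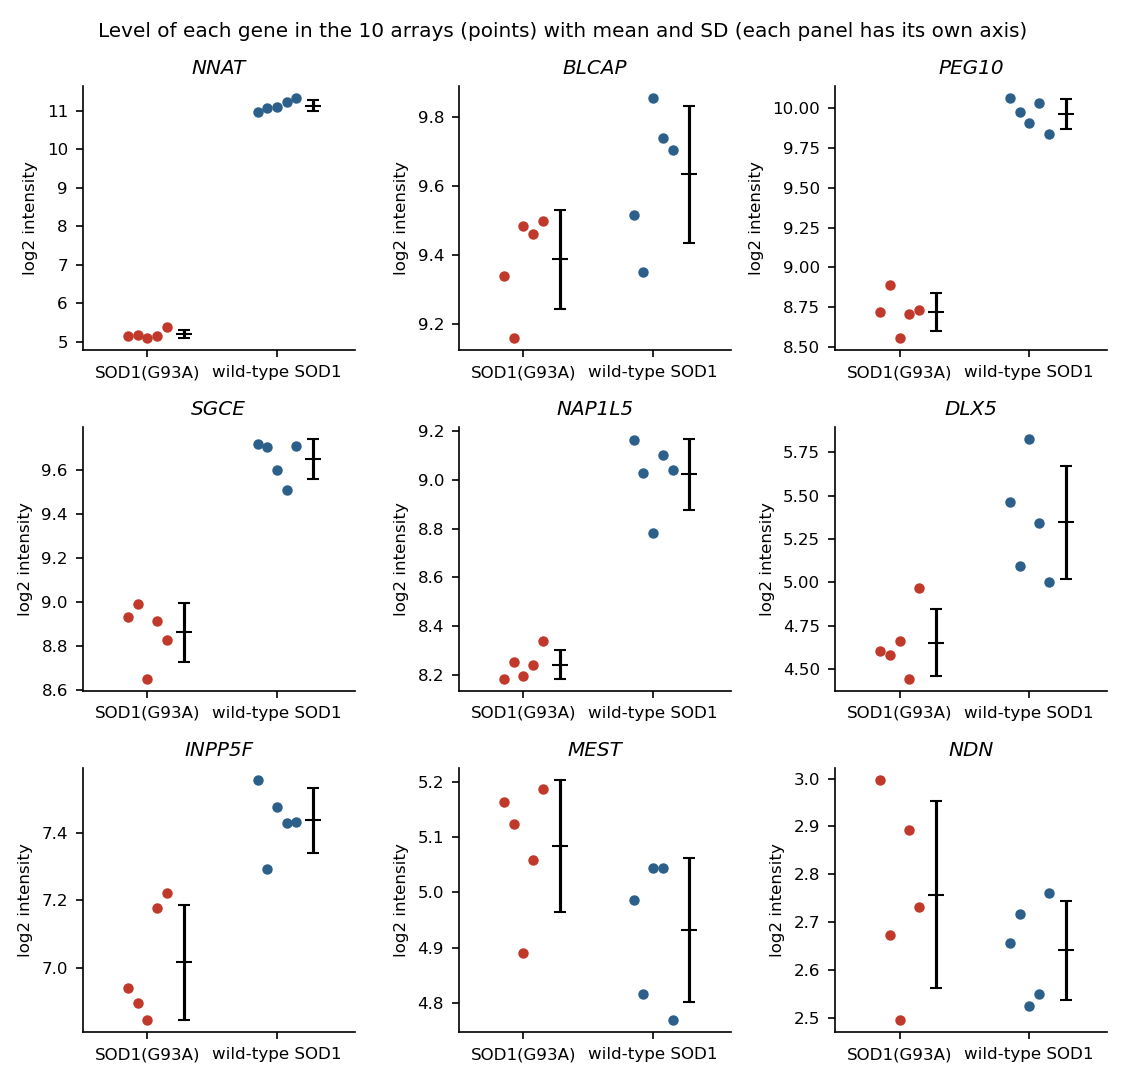
Log2 intensity (vertical axis, a separate scale in each panel) of 9 genes in 5 SOD1(G93A) arrays (left, red) and 5 wild-type SOD1 arrays (right, blue), with the mean and SD in black. NNAT, PEG10, SGCE, NAP1L5, DLX5 and INPP5F were lower in every SOD1(G93A) array than in any wild-type SOD1 array, and the groups overlapped in BLCAP, MEST and NDN.

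PEG10 and SGCE were both lower in SOD1(G93A) cells. PEG10 encodes a capsid-like protein that binds RNA, and SGCE is the gene mutated in myoclonus dystonia. PEG10 had levels of 8.72, 8.89, 8.55, 8.71 and 8.73 in SOD1(G93A) samples 3, 9, 12, 15 and 18, against 10.06, 9.98, 9.91, 10.03 and 9.84 in wild-type SOD1 samples 2, 8, 11, 14 and 17. The groups did not overlap, and SOD1(G93A) cells had 42.3% of the level with wild-type SOD1 (log2 fold change −1.24, SE 0.07). For SGCE the levels were 8.93, 8.99, 8.65, 8.91 and 8.82 in SOD1(G93A) samples 3, 9, 12, 15 and 18, against 9.72, 9.70, 9.60, 9.51 and 9.71 in wild-type SOD1 samples 2, 8, 11, 14 and 17. Again the groups did not overlap, and SOD1(G93A) cells had 57.9% of the level with wild-type SOD1 (log2 fold change −0.79, SE 0.08). Within the SOD1(G93A) arrays, sample 12 was lowest and sample 9 highest for both genes. Within the wild-type SOD1 arrays, sample 2 was highest for both, but sample 17 was lowest for PEG10 and sample 14 for SGCE. The change of PEG10 minus that of SGCE was −0.45 (SE 0.07), so the ratio of the 2 genes differed 1.37-fold between the lines.

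NAP1L5, a paternally expressed member of the histone chaperone family, had levels of 8.18, 8.25, 8.20, 8.24 and 8.34 in SOD1(G93A) samples 3, 9, 12, 15 and 18, against 9.16, 9.03, 8.78, 9.10 and 9.04 in wild-type SOD1 samples 2, 8, 11, 14 and 17. All SOD1(G93A) arrays lay below all wild-type SOD1 arrays, of which sample 11 was the lowest. The level in SOD1(G93A) cells was 58.3% of that in wild-type SOD1 cells (log2 fold change −0.78, SE 0.07).

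DLX5, a homeobox gene of forebrain and skeletal development, has a disputed imprinting status in human tissues. Its level was 4.61, 4.58, 4.66, 4.44 and 4.97 in SOD1(G93A) samples 3, 9, 12, 15 and 18, against 5.47, 5.09, 5.83, 5.34 and 5.004 in wild-type SOD1 samples 2, 8, 11, 14 and 17. The groups touched without overlapping, with SOD1(G93A) sample 18 just below wild-type SOD1 sample 17, and the spread was wider than for the genes above. The log2 fold change was −0.69 (SE 0.15).

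INPP5F, which encodes a Sac domain phosphoinositide phosphatase, has an internal start whose transcript is imprinted in mouse brain. Levels were 6.94, 6.89, 6.84, 7.18 and 7.22 in SOD1(G93A) samples 3, 9, 12, 15 and 18, against 7.56, 7.29, 7.48, 7.43 and 7.43 in wild-type SOD1 samples 2, 8, 11, 14 and 17. The groups did not overlap, with SOD1(G93A) samples 15 and 18 nearest to the wild-type SOD1 arrays. The log2 fold change was −0.42 (SE 0.09), and the gene-level value does not separate the internal transcript from the full one.

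MEST and NDN did not share this direction. MEST, a paternally expressed hydrolase-fold gene that hosts a microRNA, ranged from 4.89 to 5.19 in SOD1(G93A) arrays and from 4.77 to 5.04 in wild-type SOD1 arrays (log2 fold change 0.15, 95% interval −0.02 to 0.33). NDN encodes necdin, a growth-restraining MAGE protein of neurons from the Prader-Willi region, and ranged from 2.49 to 3.00 in SOD1(G93A) arrays and from 2.52 to 2.76 in wild-type SOD1 arrays. Its log2 fold change was 0.12 (95% interval −0.09 to 0.33). NDN was below the arrays' lower quartile in both lines, where log2 differences are compressed. The probe set annotated with both PEG3, a paternally expressed zinc finger gene, and its neighbour ZIM2 averaged 6.79 ± 0.05 in SOD1(G93A) arrays and 6.78 ± 0.05 in wild-type SOD1 arrays (SD, n = 5 each), and is assigned to neither gene.

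In all, 6 of the 9 measured genes were past a limma adjusted p of 0.05 over all probe sets, all 6 lower in SOD1(G93A), beside 9.60% of named genes past it in either direction, 5.57% lower and 4.03% higher. NNAT and PEG10 also differed at least 2-fold, the second threshold of the labels, beside 1.18% of named genes in either direction and 0.682% lower. The same 6 genes had no overlap between the groups, beside 11.4% of named genes in either direction and 6.49% lower. These counts describe genes chosen on this contrast. Their median log2 fold change was −0.69, and that of all named genes was −0.0043.

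**Figure D2:**
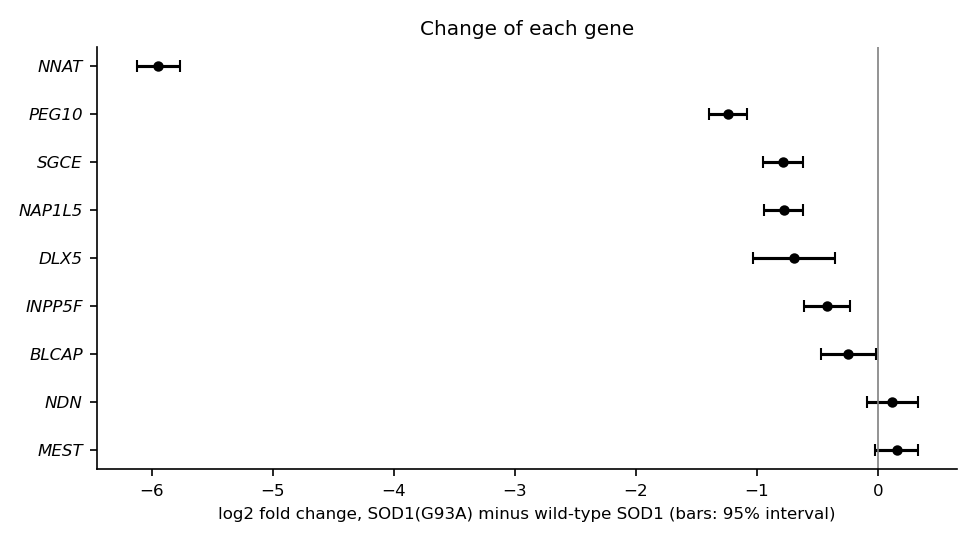
Log2 fold change of 9 genes, SOD1(G93A) minus wild-type SOD1 (horizontal axis, points with 95% intervals), sorted with the lowest at the top. NNAT stands at −5.95 and PEG10 at −1.24, 4 genes lie between −0.79 and −0.42, BLCAP is at −0.25, and MEST and NDN lie just above 0.

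By size of pattern over the 10 arrays, the genes most like NNAT were CXCR4, RXFP1 and LMO3, with root mean square differences of 1.02, 1.08 and 1.19 log2 units after each gene was centred on its own mean. CXCR4 encodes a chemokine receptor, RXFP1 a relaxin receptor and LMO3 a LIM-only transcriptional regulator. Their log2 fold changes were −3.97, −3.82 and −3.60. Since NNAT had the lowest log2 fold change of all named genes, no gene could match its fall. PEG10 had much closer matches. RIMS1, an active-zone gene, differed from it by 0.08, PDE7B, a cyclic AMP phosphodiesterase gene, by 0.11 and CHRDL1, which encodes a secreted BMP antagonist, by 0.12, with log2 fold changes of −1.30, −1.18 and −1.27. This measure takes in the difference between the groups.

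Genes next to NNAT and BLCAP had log2 fold changes of −0.23 to 0.12. None of the 10 nearest named genes of that locus was called by limma. The nearest before the pair in chromosome order were SRC, a tyrosine kinase gene (log2 fold change −0.23, SE 0.10, adjusted p = 0.263), and MANBAL (−0.08, SE 0.09). The nearest after it were CTNNBL1, a spliceosome-associated gene (−0.20, SE 0.08, adjusted p = 0.186), and VSTM2L (−0.11, SE 0.06). Without wild-type SOD1 sample 8, CTNNBL1 reached an adjusted p of 0.0500.

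Next to PEG10 and SGCE, none of the 10 nearest measured genes was called either. Genes without a probe set annotated with their symbol alone are passed over in this order. CASD1, a sialic acid acetyltransferase gene next to SGCE, had a log2 fold change of 0.08 (SE 0.09, adjusted p = 0.722), and the collagen gene COL1A2 beyond it −0.12 (SE 0.05, adjusted p = 0.265). The paraoxonase genes PON1 and PON2 on the PEG10 side gave 0.08 (SE 0.07, adjusted p = 0.632) and −0.14 (SE 0.07, adjusted p = 0.357). PON1 was below the arrays' lower quartile. PEG10, SGCE and these 10 neighbours lie within a longer stretch of 17 measured genes from TFPI2 to DLX5, chosen after the values were seen. In it 5 were lower, or 29.4%, beside 5.57% of named genes, and 12 were not called. The 5 were TFPI2, SGCE, PEG10, DLX6 and DLX5. SGCE, PEG10 and DLX5 are studied genes and both ends of the stretch are among the 5, so the count follows in part from the choice. DLX6, the homeobox partner of DLX5, averaged 6.94 ± 0.14 in SOD1(G93A) arrays and 7.31 ± 0.17 in wild-type SOD1 arrays (SD, n = 5 each, log2 fold change −0.37, SE 0.09, limma adjusted p = 0.0378), while SEM1 and SDHAF3, the genes flanking the DLX pair, gave 0.08 and 0.06 and were not called. The DLX6 call was lost without any 1 of SOD1(G93A) samples 3, 9 and 15 and wild-type SOD1 samples 2, 11 and 14 (adjusted p up to 0.0946).

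At the NAP1L5 locus the host gene was lower as well. HERC3, a ubiquitin ligase gene around NAP1L5, averaged 5.35 in SOD1(G93A) arrays and 5.80 in wild-type SOD1 arrays and fell by 0.44 (SE 0.09, limma adjusted p = 0.00965). Its neighbour HERC5, an interferon-induced ISG15 ligase gene, averaged 5.48 in SOD1(G93A) arrays and 5.90 in wild-type SOD1 arrays and fell by 0.42 (SE 0.09, adjusted p = 0.0167). The groups overlapped in HERC5. On the other side FAM13A and TIGD2 were not called (−0.22 and −0.14). All 10 nearest named genes of this locus were below 0, with log2 fold changes of −0.45 to −0.04 and a median of −0.18. Of these 10, 2 were called, HERC3 and HERC5. The lowest of the 10 was another gene, which was not called (limma adjusted p = 0.0574). Whether HERC3 and BLCAP differ in their change was not tested.

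Around INPP5F the neighbours were mixed. BAG3, a co-chaperone gene next to it, fell by 0.43 (SE 0.10, limma adjusted p = 0.0211), and the receptor kinase gene FGFR2 by 0.29 (SE 0.07, adjusted p = 0.0278, a level below the lower quartile), while GRK5, a receptor kinase of G protein-coupled receptors, rose by 0.40 (SE 0.09, adjusted p = 0.0205). MCMBP, TIAL1 and SEC23IP gave 0.12, 0.04 and 0.04 and were not called. The BAG3 call was lost without SOD1(G93A) sample 9 (adjusted p = 0.0569) and that of GRK5 without SOD1(G93A) sample 15 (adjusted p = 0.0570). The FGFR2 call was lost without any 1 of SOD1(G93A) samples 3, 9, 15 and 18 and wild-type SOD1 samples 2, 11 and 17 (adjusted p up to 0.0696).

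**Figure D3:**
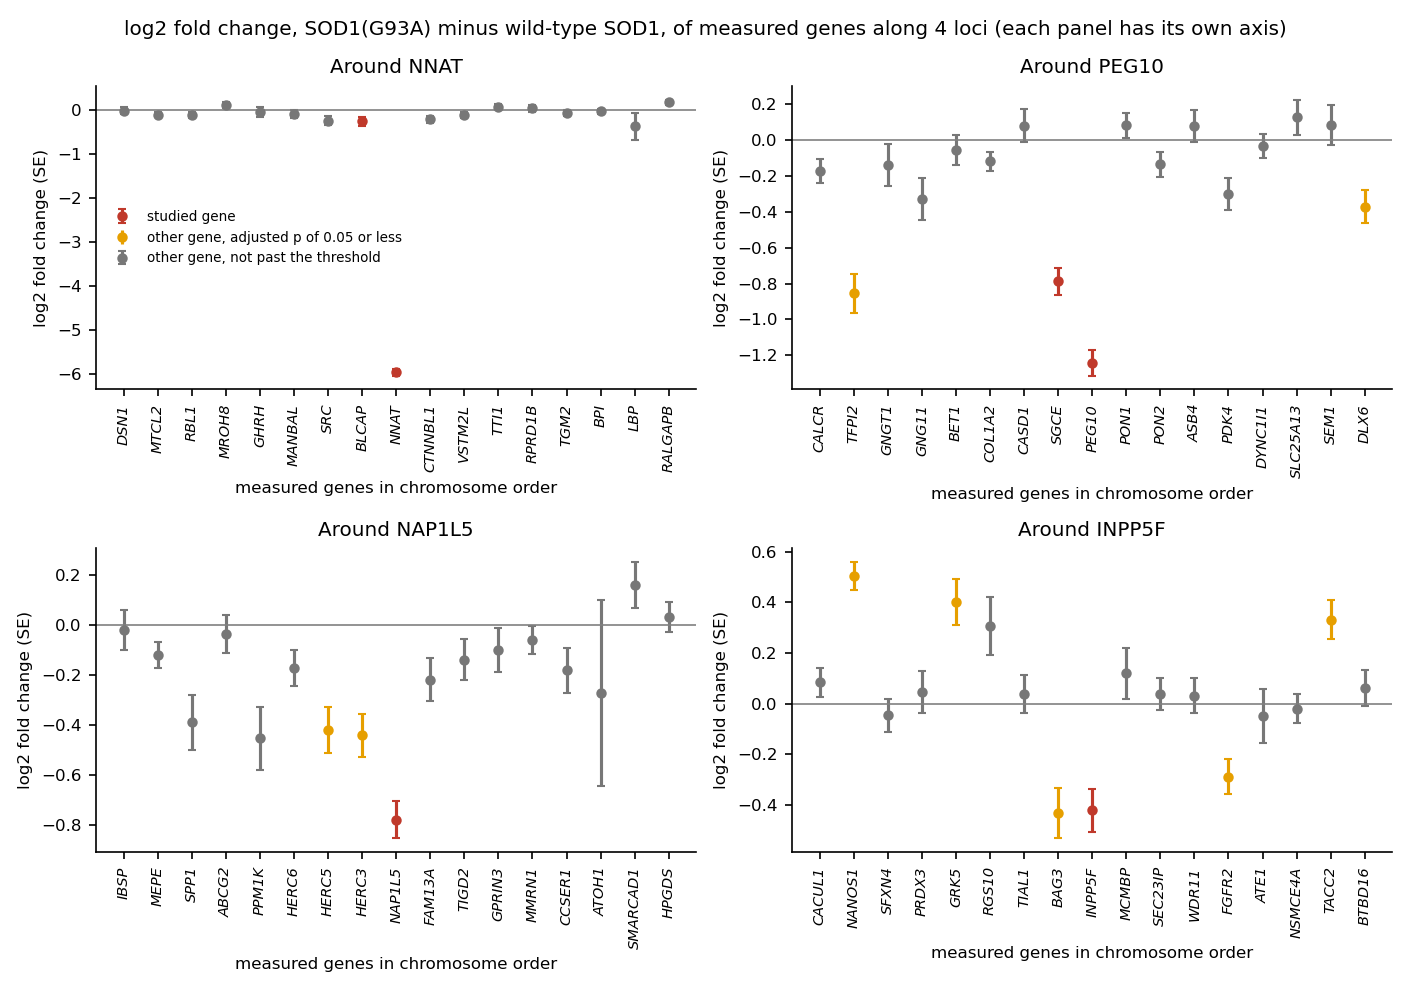
Log2 fold change with SE (vertical axis, a separate scale in each panel), SOD1(G93A) minus wild-type SOD1, of measured named genes in chromosome order around NNAT, PEG10, NAP1L5 and INPP5F. NNAT stands alone at −5.95 among neighbours near 0. PEG10 and SGCE are a lower pair between CASD1 and PON1, the nearest measured genes. HERC3 and HERC5 lie below 0 beside NAP1L5, as do all 10 of its nearest neighbours.

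Near MEST, 1 gene rose and 2 fell. CPA1, a carboxypeptidase gene, rose by 0.45 (SE 0.10, limma adjusted p = 0.0176), and farther off on the other side PLXNA4, a semaphorin coreceptor gene, fell by 0.70 (SE 0.11, adjusted p = 0.00265) and PODXL, a sialomucin gene, by 0.68 (SE 0.07, adjusted p = 0.000135). CEP41 and KLF14, which flank MEST, gave 0.03 each and MKLN1 −0.08, none of them called. Of the Prader-Willi region genes next to NDN, none was called: MAGEL2 gave 0.17, MKRN3 −0.12, NPAP1 −0.06 and SNRPN 0.25 (adjusted p = 0.445 to 0.901). MAGEL2 and SNRPN were below the arrays' lower quartile in both lines. Of 68 neighbours of all loci, the 5 nearest named genes on each side of each studied gene, 2 rose and 9 fell, or 16.2%, beside 9.60% of named genes. Without any 1 of SOD1(G93A) samples 3, 9 and 15 and wild-type SOD1 sample 11 the number that fell was 5, and without SOD1(G93A) sample 15 the number that rose was 1. The lower ones included ASNS, the asparagine synthetase gene (−0.27, adjusted p = 0.0294), and the kinase gene LMTK2 (−0.25, adjusted p = 0.0412), both beyond DLX5. Among omissions of 1 array, ASNS kept its call only without SOD1(G93A) sample 9 or 18 or wild-type SOD1 sample 14 (adjusted p up to 0.0753 in the others), and LMTK2 only without SOD1(G93A) sample 18 or wild-type SOD1 sample 8 (up to 0.0973 in the others).

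Imprinted genes beyond these moved in both directions and at a share near that of all genes. Of 62 measured, 4 rose and 4 fell by limma, or 12.9%, beside 9.60% of named genes, and 54 were not called. Their median log2 fold change was −0.02, against −0.0043 over all named genes. Another 14 of the 89 genes listed were read only by probe sets annotated with several genes and were left out. For many of the 62, imprinting is known only in some tissues, such as placenta.

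Among the falls, TFPI2, a Kunitz-type serine protease inhibitor gene near PEG10, averaged 11.23 ± 0.16 in SOD1(G93A) arrays and 12.08 ± 0.20 in wild-type SOD1 arrays (SD, n = 5 each) and fell by 0.86 (SE 0.11, limma adjusted p = 0.000592). RHOBTB3 averaged 8.31 ± 0.14 in SOD1(G93A) arrays and 8.73 ± 0.14 in wild-type SOD1 arrays (SD, n = 5 each), a fall of 0.42 (adjusted p = 0.0130). The potassium channel gene KCNQ1 averaged 6.42 ± 0.07 in SOD1(G93A) arrays and 6.71 ± 0.07 in wild-type SOD1 arrays (SD, n = 5 each), a fall of 0.29 (adjusted p = 0.00913). DLX6, described above, was the remaining one. In all 4 the groups did not overlap, beside 6.49% of named genes that were lower without overlap. The 4 were picked by adjusted p, which favours groups that lie apart.

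Among the rises, LRRTM1, a synaptic adhesion gene, averaged 6.02 ± 0.17 in SOD1(G93A) arrays and 5.27 ± 0.11 in wild-type SOD1 arrays (SD, n = 5 each) and rose by 0.75 (SE 0.09, limma adjusted p = 0.000337). WDR27, a WD-repeat gene, averaged 6.86 in SOD1(G93A) arrays and 6.53 in wild-type SOD1 arrays, a rise of 0.33 (adjusted p = 0.0148, and 0.0826 without samples 17 and 18 together). DDC, the dopa decarboxylase gene of catecholamine synthesis, rose by 0.28 to 10.45 ± 0.10 in SOD1(G93A) arrays, against 10.17 ± 0.08 in wild-type SOD1 arrays (SD, n = 5 each, limma adjusted p = 0.0231). USP29, a PEG3 neighbour, averaged 2.34 in SOD1(G93A) arrays and 1.85 in wild-type SOD1 arrays, below the arrays' lower quartile (log2 fold change 0.49, adjusted p = 0.0403). The USP29 call was lost without any 1 of SOD1(G93A) samples 9 and 18 and wild-type SOD1 samples 2, 11, 14 and 17 (adjusted p up to 0.0973). That of DDC was lost without wild-type SOD1 sample 8, 11 or 17 (adjusted p up to 0.0615). Without wild-type SOD1 sample 11 or 17 the number of rises was 2, and without samples 17 and 18 together it was 1.

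**Figure D4:**
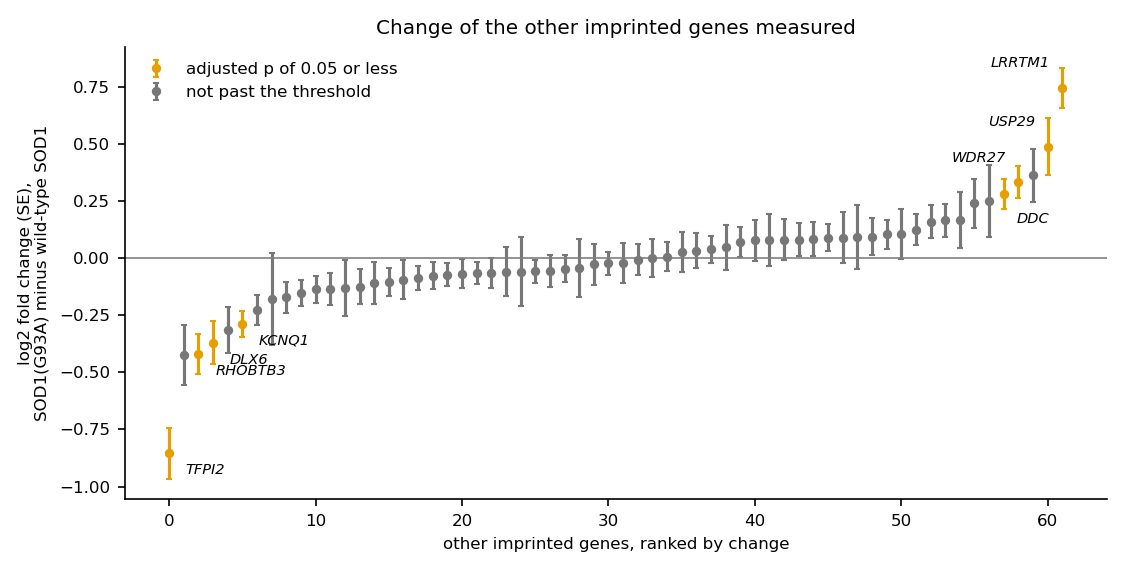
Log2 fold change with SE (vertical axis), SOD1(G93A) minus wild-type SOD1, of 62 imprinted genes other than those above, ranked along the horizontal axis. The 8 genes past an adjusted p of 0.05 are in orange and named, with TFPI2 lowest at −0.86 and LRRTM1 highest at 0.75.

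Among regulators of imprints and DNA methylation, DNMT3A and EZH2 were called. Of 26 measured, 2 fell and none rose by limma, or 7.69%, beside 9.60% of named genes, with 3 lower and 0 higher at an unadjusted p under 0.05 and 1 called by the unmoderated model. DNMT3A, a de novo DNA methyltransferase gene, averaged 8.30 ± 0.21 in SOD1(G93A) arrays and 8.77 ± 0.18 in wild-type SOD1 arrays (SD, n = 5 each), a fall of 0.47 (SE 0.11, adjusted p = 0.0318). EZH2, the polycomb methyltransferase gene, fell by 0.20 (SE 0.05, adjusted p = 0.0407). DNMT3A lay in a stretch of 201 measured genes from SH3YL1 to ACYP2, its ends chosen with the values known. In this stretch 101 genes, or 50.2%, fell, beside 5.57% of named genes. The DNMT3A call was lost without any 1 of SOD1(G93A) samples 3, 9 and 15 and wild-type SOD1 samples 2, 14 and 17 (adjusted p up to 0.0807), and that of EZH2 without any 1 array other than SOD1(G93A) sample 18 (adjusted p up to 0.0978).

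Neuronatin is related in structure to phospholamban and is known to act on the SERCA calcium pumps. Of 17 SERCA and endoplasmic reticulum calcium genes, 2 rose and 1 fell, or 17.6%, beside 9.60% of named genes. ITPR3, an inositol trisphosphate receptor gene, averaged 6.63 ± 0.12 in SOD1(G93A) arrays and 6.08 ± 0.13 in wild-type SOD1 arrays (SD, n = 5 each), a rise of 0.55 (SE 0.08, limma adjusted p = 0.00158). ATP2A3, a SERCA pump gene of non-muscle cells, rose by 0.26 (SE 0.06, adjusted p = 0.0144, and 0.0582 without samples 17 and 18 together), and the receptor gene ITPR1 fell by 0.33 (SE 0.08, adjusted p = 0.0260). The ITPR1 call was lost without any 1 of SOD1(G93A) samples 3, 9 and 15 and wild-type SOD1 samples 2, 11 and 14 (adjusted p up to 0.0680). Of 7 measured partners of NNAT and editors of BLCAP, none was called by limma or the unmoderated model, and 0 had an unadjusted p under 0.05. Their log2 fold changes ran from −0.02 in the editing enzyme gene ADAR to 0.12 in SEC11A.

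Relatives and partners of the other genes were mostly not called, as were named genes at large, of which 9.60% were called in either direction. Called by limma were 1 of 8 relatives of PEG10 and 2 of 10 sarcoglycan and dystrophin complex genes. So were 1 of 8 DLX and GABA synthesis genes and 2 of 8 partners of PEG3 and MEST. Of the rest, 0 of 6 NAP1 family genes, 1 of 11 phosphoinositide phosphatase genes and 1 of 13 partners and relatives of NDN were called. Each list is short, so 1 call moves its share widely, and whether any share differs from that of named genes was not tested. The unmoderated model called 0 relatives of PEG10, 0 DLX and GABA synthesis genes and 0 partners of PEG3 and MEST. It called 2 sarcoglycan and dystrophin complex genes, 1 phosphoinositide phosphatase gene and 1 gene of the NDN list. Of 8 measured relatives of PEG10, PNMA3 fell by 0.26 (limma adjusted p = 0.0462), a call lost without any 1 array other than wild-type SOD1 sample 11 (adjusted p up to 0.109). Of 10 sarcoglycan and dystrophin complex genes, DTNB, the β-dystrobrevin gene, averaged 8.04 ± 0.04 in SOD1(G93A) arrays and 8.50 ± 0.02 in wild-type SOD1 arrays (SD, n = 5 each) and fell by 0.46 (SE 0.04, adjusted p = 7.9e-05). DTNB lay in the same stretch as DNMT3A. UTRN, the utrophin gene, rose by 0.22 with both lines below the lower quartile (adjusted p = 0.0382), a call that held among omissions of 1 array only without SOD1(G93A) sample 9 or wild-type SOD1 sample 17 (up to 0.0936 in the others). None of 6 NAP1 family genes was called by limma or the unmoderated model, with 0 at an unadjusted p under 0.05. Of 8 DLX and GABA synthesis genes 1 fell, DLX6.

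Of 11 phosphoinositide phosphatase genes related to INPP5F, SYNJ2, the synaptojanin 2 gene, fell by 0.42 (SE 0.06, limma adjusted p = 0.00145) and no other was called. At an unadjusted p under 0.05, 4 of the 11 were higher and 1 was lower, and their median log2 fold change was 0.07. Of 13 partners and relatives of NDN, MAGED1, a MAGE gene of neurotrophin signalling, fell by 0.25 (SE 0.06, adjusted p = 0.0271). Its call was lost without any 1 of SOD1(G93A) samples 3, 12 and 18 and wild-type SOD1 samples 8, 11 and 17 (adjusted p up to 0.0692). Of 8 partners of PEG3 and MEST, the histone demethylase gene KDM1A fell by 0.32 (adjusted p = 0.0415) and MEX3C, an RNA-binding ubiquitin ligase gene, by 0.26 (adjusted p = 0.0454). Among omissions of 1 array, the KDM1A call held only without SOD1(G93A) sample 18 or wild-type SOD1 sample 8 (up to 0.100 in the others), and that of MEX3C only without SOD1(G93A) sample 9 (up to 0.107).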

How the data were processed

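Affymetrix exon arrays were read for 10 samples of transfected SH-SY5Y cells, 5 per group. The deposited values are log2 intensities, 1 per probe set, made by the authors with RMA (background subtraction, quantile normalization and probe summary), per the submitters' processing notes, in oneChannelGUI 1.6.5 per the labels. Quantile normalization makes array distributions alike, which hides any shift common to all genes. The submitters' genome build and filters are not given here. Names come from the platform annotation. Of 22011 probe sets, 14432 had 1 gene symbol, 2408 several and 5171 none. Per gene the probe set with the highest mean was used.

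Groups were compared in R 4.3.3 with limma 3.58.1 (lmFit, eBayes, 2-sided). P-values were adjusted by Benjamini-Hochberg across the 22011 probe sets, and genes at 0.05 or less were called, the false discovery rate of the labels. Each log2 fold change subtracts the wild-type SOD1 mean, and its SE is moderated. The fit was tested on simulated data. The genes studied, and the 11 gene lists, were chosen with earlier results of these data known. Genes named were, by rule, the studied genes, SOD1, the called genes with the largest changes in each list (up to 12 imprinted, up to 4 of the others), the nearest 2 neighbours per side, up to 6 other called neighbours and the 3 genes closest in pattern to NNAT and PEG10. Neighbours follow the RefSeq order of GRCh38.p14 among the measured named genes. Alternatives were re-normalization, a filter on dim probe sets, other variance models, array weights, another probe set choice, omission of samples and, added after seeing the data, a block of consecutive sample numbers. The number of arrays limits the precision.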

Additional observations from a re-analysis of the deposited data

Results flagged for a closer look

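In 9 of 138 groups of 5 arrays, from 69 named genes, 1 array lay apart from the other 4 by more than Dixon's limit, where chance flags about 1 group in 20. Among the studied genes this was NNAT in SOD1(G93A) sample 18, at 5.37 with the others at 5.10 to 5.17. In SOD1(G93A) arrays it was also USP29 in sample 15 (2.78, others 2.16 to 2.33), DTNB in sample 3 (8.11, others 8.00 to 8.03) and LMTK2 in sample 18 (7.67, others 7.47 to 7.53). In wild-type SOD1 arrays it was BAG3 in sample 17 (6.58, others 6.02 to 6.16), PNMA3 in sample 11 (5.57, others 5.79 to 5.88), CEP41 in sample 11 (7.94, others 7.69 to 7.73), MAGEL2 in sample 2 (2.83, others 3.28 to 3.40) and SNRPN in sample 14 (2.84, others 2.19 to 2.36).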

How the results depend on the processing

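Across 18 alternatives, 16 results gave 279 values, of which 269 stayed within 1.5 times the reported count, or within 1 SD of the samples for a log2 difference, and 10 moved; no direction was reversed. The small differences of MEST (0.09 to 0.20) and NDN (0.06 to 0.18) stayed within 1 SD but varied in size by over 1.5 times. The NNAT change ran from −5.99 to −5.90 and NNAT minus BLCAP from −5.77 to −5.65. PEG10 minus SGCE ran from −0.51 to −0.40. Of the studied genes 5 or 6 were past the threshold. With 1 array left out, 2 to 5 other imprinted genes rose and 3 to 5 fell, and 1 to 3 neighbours rose and 5 to 9 fell. Without samples 17 and 18 together, 1 imprinted gene rose. Among probe sets above the median level only, where dim genes were not tested, 0 neighbours rose by limma and 4 fell; this setting has no value for DLX5, MEST or NDN. Of 36 called genes named beyond the studied ones, 18 kept their call under each of the 18 alternatives that tested them and 18 lost it under at least 1 (adjusted p up to 0.170); WDR27 and ATP2A3 lost it, among these, only without samples 17 and 18 together (adjusted p = 0.0826 and 0.0582). The cause was not tested. The groups share no sample number and the labels state no pairing, but numbers run consecutively (2 and 3 to 17 and 18), so a fit with these 5 pairs as a replicate block was added after seeing the data. Deviations from the group means correlated at −0.03 to 0.14 within these pairs, highest for samples 8 and 9. Of 5 SOD1(G93A) samples, 1 correlated best with its own wild-type SOD1 neighbour. Of 5 wild-type SOD1 samples, 2 correlated best with their own SOD1(G93A) neighbour. With most samples closer to another one, the numbers were not taken to pair the samples. The replicate block gave 1213 called probe sets, against 1643 without it. Of the other imprinted genes 3 rose and 1 fell, of the neighbours 2 rose and 6 fell, and 5 of the studied genes were past the threshold, without DLX5. Among the named genes 15 calls were lost, including RHOBTB3 (adjusted p = 0.0578) and KCNQ1 (0.0565), which none of the 18 ended. BLCAP was lower in SOD1(G93A) in 5 of 5 pairs, with log2 differences of −0.37 to −0.18 (SE 0.06 with the block, 0.10 without). Log2 differences of dim probe sets are compressed, so the size of a difference ending near the lower quartile is uncertain.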
